A study of Mus musculus with 5 samples.

Results

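Here 10 genes that mark astrocytes or act in the switch of cortical progenitors to gliogenesis were followed in the E16 cortex. They are Gfap, S100b, Aqp4, Aldh1l1, Aldoc, Slc1a2, Sox9, Nfia, Nfib and Id3, and the rule takes them by name, with no threshold on a measured value. All 10 were among the 23997 gene names of the expression table, and all 10 were among the 14697 genes whose mean reached 0.1 FPKM (a read density corrected for transcript length and for the mapped fragments of each library) and which were tested. RNA-seq of full cortex was available from 2 cKO embryos (Uhrf1 -/-, libraries MG18 and MG19) and 3 control embryos (Uhrf1 +/-, libraries MG15, MG16 and MG17), all on a C57BL/6 background. Both groups carried Emx1-Cre, so the control animals were themselves without functional Uhrf1 on 1 allele in the recombined cells. Emx1-Cre deletes a floxed exon of Uhrf1 in the dorsal telencephalon, so that cells born elsewhere, such as interneurons from the ganglionic eminences, microglia and vessels, kept the gene.

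Uhrf1 recruits the maintenance methyltransferase Dnmt1 to newly replicated DNA. Radial glia of the cerebral cortex first make neurons and only around birth make astrocytes, a switch that depends on Sox9 and the nuclear factor I proteins and on cytokine and BMP signals acting through STAT3 and SMAD proteins. In mouse progenitors the Gfap promoter is known to be methylated at a STAT3 site upstream of the windows shown here, and to lose this methylation as astrocytes are made. Several astrocyte genes, including Aldoc, Aldh1l1 and Slc1a3, are already transcribed in radial glia, while Gfap, S100b and Aqp4 appear late.

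Promoter windows are shown for 4 genes, Gfap, Slc1a2 and Id3, the members whose cKO and control values did not overlap, and S100b, a late astrocyte gene whose values did. Each window holds 250 bases before and 50 bases after a transcript start in RefSeq (GRCm38.p6), read 5' to 3' on the strand of the gene. Capitals mark CG dinucleotides, the sites of DNA methylation, and matches on either strand to TTCNNNGAA, the consensus of STAT proteins.
Gfap (chr11:102897151-102897450, minus strand): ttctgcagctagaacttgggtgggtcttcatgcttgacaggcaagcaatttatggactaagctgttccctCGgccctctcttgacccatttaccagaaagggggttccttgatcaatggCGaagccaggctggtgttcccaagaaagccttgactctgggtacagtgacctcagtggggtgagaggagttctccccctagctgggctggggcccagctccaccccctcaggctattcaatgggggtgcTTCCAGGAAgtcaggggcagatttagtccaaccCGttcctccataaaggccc
Slc1a2 (chr2:102706188-102706487, plus strand): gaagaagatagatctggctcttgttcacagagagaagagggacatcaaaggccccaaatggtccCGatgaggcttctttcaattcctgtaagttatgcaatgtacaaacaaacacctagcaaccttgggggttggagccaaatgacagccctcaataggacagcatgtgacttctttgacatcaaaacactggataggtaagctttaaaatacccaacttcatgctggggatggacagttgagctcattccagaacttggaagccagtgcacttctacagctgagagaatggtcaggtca
Id3 (chr4:136143572-136143871, plus strand): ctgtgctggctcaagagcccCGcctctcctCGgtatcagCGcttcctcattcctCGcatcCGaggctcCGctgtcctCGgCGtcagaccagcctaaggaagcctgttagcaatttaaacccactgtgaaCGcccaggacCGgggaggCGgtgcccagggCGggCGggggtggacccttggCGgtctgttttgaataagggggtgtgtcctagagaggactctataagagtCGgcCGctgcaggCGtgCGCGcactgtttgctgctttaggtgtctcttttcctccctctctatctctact
S100b (chr10:76253586-76253885, plus strand): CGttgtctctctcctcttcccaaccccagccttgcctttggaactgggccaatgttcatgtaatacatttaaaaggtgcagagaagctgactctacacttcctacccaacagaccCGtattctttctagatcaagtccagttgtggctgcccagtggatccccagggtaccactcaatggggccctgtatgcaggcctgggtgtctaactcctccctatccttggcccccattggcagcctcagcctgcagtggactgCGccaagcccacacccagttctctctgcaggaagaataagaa

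These windows differed in CG content. The Gfap and S100b windows held 3 CG dinucleotides each, and 31.4% of 32851 windows in the table held as few or fewer. The Slc1a2 window, which lies inside the gene and downstream of its annotated start, held 1 (14.1% of windows), whereas the Id3 window held 19 (73.5%), against a median of 7 over all windows. The STAT consensus was matched once in the Gfap window, as TTCCAGGAA from base 249, and not in the other 3 windows, and 8.3% of all windows held a match. The match was not particular to Gfap among the members. A window of Aldoc that is not shown (chr11:78323948-78324247) held 2 matches, and Aldoc was not called. The other Aldoc window and those of Aldh1l1 and Nfia held 0. TTGGC, the short element of the nuclear factor I proteins, searched on both strands, was present in the windows of Slc1a2, Id3 and S100b and not in that of Gfap, and 46.7% of all windows held it. Among the 10 members, 7 had a window. Methylation of these windows was not analysed here.

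Uhrf1 was measured at 2.75 and 2.61 FPKM in cKO cortex, against 7.24, 13.2 and 13.0 FPKM in control cortex (log2 fold change -1.97, SE 0.28, adjusted p = 0.00767, limma). Neurog2, a proneural factor of dorsal progenitors, was present at 42.2 and 41.0 FPKM in cKO and at 50.9, 65.3 and 91.8 FPKM in control libraries, so this marker of the labelled tissue was found in every library. Among the genes tested, 423 were higher and 171 lower in cKO cortex at the thresholds of the study, an unadjusted p under 0.05 and over 2-fold. The study applied these thresholds to p-values of another test and reported fewer genes in both directions at E16. The counts here are those of limma on the FPKM values. The libraries also differed technically. In cKO libraries 39.2% and 56.0% of the summed FPKM came from names of small RNAs, and in control libraries between 64.6% and 87.4%. The depth, estimated roughly from the spacing of low FPKM values, was about 8100000 and 9700000 fragments in cKO libraries and about 37000000, 15000000 and 10000000 in MG15, MG16 and MG17. The median FPKM of the genes tested lay between 8.55 and 9.06 in all 5 libraries.

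Gfap was the only member past the thresholds, and the other 9 were not called in either direction. This is 1 of 10 members higher, where 2.88% of all genes tested were called higher, and 0 of 10 lower, where 1.16% were called lower. At an adjusted p under 0.05 (Benjamini and Hochberg, over all genes tested) Gfap was again the only one higher and 0 were lower, with backgrounds of 1.10% and 0.163%. Of the members, Gfap and Slc1a2 had an unadjusted p under 0.05 and a positive fold change, 2 of 10 where 11.5% of all genes tested had such a p in either direction. For Gfap, Slc1a2 and Id3 both cKO libraries lay above all 3 control libraries, 3 of 10 members where 14.5% of all genes did so, and for 0 members did both lie below, where 16.3% of all genes did. The log2 fold change was positive for 8 members and negative for Aldoc and Aqp4, with a median of 0.31 against -0.02 over all genes tested, but Aldh1l1, Nfia, Nfib and Id3 turned negative when libraries were scaled to equal sums, a setting that moved the median of all genes to -0.38.

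**Figure D1:**
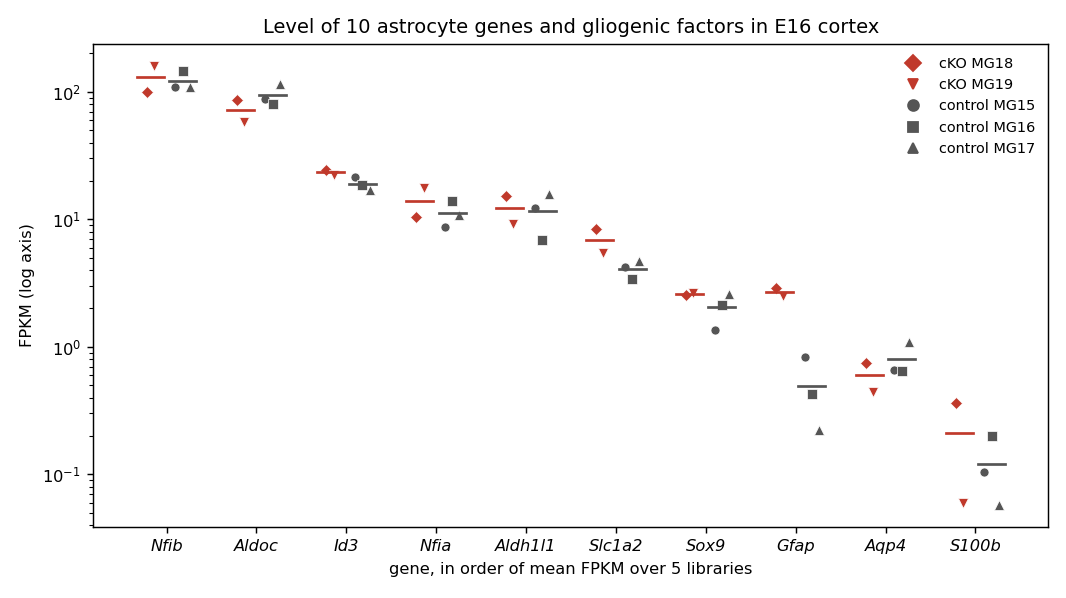
FPKM of the 10 genes (log axis) in each library, cKO in red on the left and control in grey on the right of each gene, with bars at the group means and genes ordered by mean level. Gfap at 2.91 and 2.52 FPKM in cKO stands above control values of 0.833, 0.424 and 0.224, while the groups of most other genes overlap.

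Gfap encodes the intermediate filament protein by which mature and reactive astrocytes are most often recognised. Its level was 2.91 FPKM in MG18 and 2.52 FPKM in MG19, the cKO cortices, against 0.833, 0.424 and 0.224 FPKM in the control libraries MG15, MG16 and MG17. Both cKO values were over 3 times the highest control value, although the controls themselves spread 3.72-fold. The log2 fold change was 2.37 (SE 0.44, 95% interval 1.38 to 3.37), which is 5.18-fold on the scale of FPKM + 0.1, and the mean was 2.71 ± 0.277 FPKM in cKO (SD, n = 2) and 0.494 ± 0.310 FPKM in control (SD, n = 3). Gfap ranked 138 of 14697 by log2 fold change, and its adjusted p was 0.0359 by limma. By exact permutation (two-sided) p was 0.1, and with groups of 2 and 3 it cannot be smaller.

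Even so Gfap remained a low transcript. In cKO cortex it reached 2.71 FPKM on average, and over all 5 libraries only 20.7% of the genes tested had a lower mean. With a transcript of 2648 bases, the values stand for roughly 63 and 65 fragments in the cKO libraries and roughly 82, 17 and 6.1 in MG15, MG16 and MG17, so the low control values rest on few fragments. The control with the highest Gfap, MG15, was also the one estimated to be deepest, although its depth, and so its number of fragments, was the least certain. The part of depth in the result was not tested. The gene spans chr11:102887336-102897200 on the minus strand, and no exon of another gene overlaps its exons. Without MG18 the log2 fold change was 2.27 and the adjusted p 0.442, and without MG19 these were 2.47 and 0.367. Leaving out MG16, MG17 or MG15 gave an adjusted p of 0.0923, 0.0670 or 0.0111, so the call at the adjusted threshold was lost when any library but MG15 was left out, whereas the unadjusted call held in all 5 cases. Under other settings of the same fit the adjusted p ranged from 0.00809 to 0.0889. The paper reports a mild rise of Gfap in separate RNA-seq of the E16 ventricular zone, but no Gfap transcripts by RT-qPCR. By immunostaining it found the GFAP protein absent from E16 cortex of both genotypes.

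S100b and Aqp4, the other late members, were not called, and their groups overlapped. S100b, a calcium binding protein of mature astrocytes, was at the edge of detection, with 0.365 and 0.0600 FPKM in cKO and 0.105, 0.199 and 0.0576 FPKM in control libraries. These values stand for between 0.86 and 5.8 fragments, the cKO libraries held the highest and the second lowest value, and the interval was wide (log2 fold change 0.36, 95% interval -0.98 to 1.69, adjusted p = 0.838). Aqp4, the water channel of astrocyte endfeet, was measured at 0.752 and 0.440 FPKM in cKO and at 0.657, 0.643 and 1.10 FPKM in control cortex. The lowest value was the cKO library MG19 and the highest the control MG17 (log2 fold change -0.37, 95% interval -1.24 to 0.50, adjusted p = 0.732). On the scale of FPKM + 0.1, a rise of the size seen for Gfap lay outside both intervals. A 2-fold rise lay inside that of S100b and outside that of Aqp4, and a 2-fold fall inside that of Aqp4. For S100b the interval cannot exclude a 2-fold fall in FPKM. Its control mean was 0.120 FPKM, close to the 0.1 FPKM added before the logarithm, which shrinks such a fall on this scale.

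Among the enzymes, Aldoc, the brain isoform of the glycolytic aldolase, was one of the 2 most abundant members. It was measured at 86.2 and 58.3 FPKM in cKO and at 88.4, 79.5 and 115 FPKM in control libraries, with MG19 lowest and MG17 highest. The log2 fold change was -0.39 (95% interval -0.89 to 0.10, adjusted p = 0.524). Aldh1l1, a folate enzyme used as a marker of the whole astrocyte lineage, showed no order by genotype, with 15.2 and 9.19 FPKM in cKO and 12.3, 6.85 and 15.8 FPKM in control libraries. Its log2 fold change was 0.10 (95% interval -0.67 to 0.87, adjusted p = 0.926), and it was -0.26 without MG18, -0.24 without MG16 and 0.46 without MG19. Exons of a pair of other annotated genes overlap those of Aldh1l1, Gm45901 on the same strand and Gm15756 on the opposite one, so its value may include their fragments.

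Slc1a2, the main glutamate transporter of astrocytes, had the next largest change after Gfap. Its level was 8.44 and 5.43 FPKM in cKO cortex, against 4.20, 3.38 and 4.70 FPKM in control cortex. Both cKO libraries were above all controls, but MG19 by little (log2 fold change 0.72, SE 0.25, 95% interval 0.15 to 1.30). The unadjusted p was 0.0187 and the adjusted p 0.323, and the change was under 2-fold. Leaving out MG19 raised the log2 fold change to 1.04, past the unadjusted thresholds (adjusted p = 0.391), and leaving out MG18 gave 0.41. Gm13872 overlaps exons of Slc1a2 on the opposite strand. The gene spans chr2:102658239-102790784.

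The transcription factors overlapped between the groups, with the exception of Id3. Sox9, an HMG box factor required for gliogenesis, was measured at 2.54 and 2.62 FPKM in cKO and at 1.36, 2.13 and 2.61 FPKM in control libraries. The cKO values differed little from each other and from the control MG17, and only MG15 was clearly lower (log2 fold change 0.37, 95% interval -0.32 to 1.07, adjusted p = 0.658). Nfia, the nuclear factor I protein whose onset in progenitors precedes gliogenesis, had 10.4 and 17.6 FPKM in cKO and 8.74, 13.8 and 10.8 FPKM in control libraries. Nfib, its paralog, which also acts in maturing cortical neurons, had 100 and 159 FPKM in cKO and 108, 145 and 109 FPKM in control libraries. For both, MG19 was the highest library and MG18 was low, within or below the control range. The log2 fold change was 0.31 for Nfia (95% interval -0.29 to 0.90, adjusted p = 0.672) and 0.08 for Nfib (95% interval -0.44 to 0.60, adjusted p = 0.914), and without MG19 both were negative, at -0.07 and -0.26. E130114P18Rik overlaps exons of Nfia on the opposite strand.

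Id3, an inhibitor of basic helix-loop-helix factors and a target of BMP signals, was measured at 24.4 and 22.3 FPKM in cKO cortex, against 21.4, 18.7 and 16.8 FPKM in control cortex. The groups did not overlap, but the lower cKO value, of MG19, was within 1 FPKM of the highest control, MG15. The log2 fold change was 0.30 (SE 0.17, 95% interval -0.07 to 0.68, adjusted p = 0.515), which did not pass the test. A 2-fold change lay outside the interval for Id3, and likewise outside those of Aldoc, Aldh1l1, Nfia and Nfib.

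**Figure D2:**
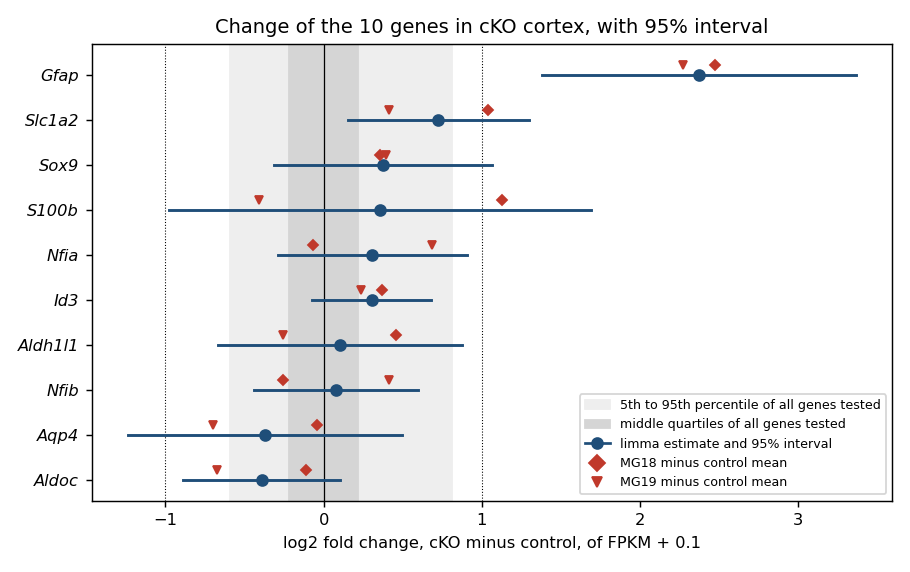
Log2 fold change of each gene, cKO minus control, with its 95% interval (blue), the value of each cKO library against the control mean (red), and the middle of the distribution over all genes tested (grey bands). Only the interval of Gfap, from 1.38 to 3.37, lies above the dotted line at 2-fold, and for S100b, Nfia, Aldh1l1 and Nfib the 2 cKO libraries fall on opposite sides of 0.

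The order of the members by level was Nfib, Aldoc, Id3, Nfia, Aldh1l1, Slc1a2, Sox9, Gfap, Aqp4 and S100b, on the FPKM scale, which is per length. Neighbours in that order had ranges that did not overlap over the 5 libraries only for Aldoc over Id3, Slc1a2 over Sox9 and Aqp4 over S100b. Gfap lay below Sox9 in 4 of the 5 libraries and above it in MG18. Among the cKO libraries, MG18 had the highest value of 4 members and MG19 of 3, and the control MG17 that of the remaining 3, so no single library was highest throughout. In bulk tissue a larger number of cells that transcribe a gene and more RNA per cell cannot be told apart.

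Further astrocyte genes, not among the members, were read from the same fit. Of 33 listed, 30 were tested, and 0 were called higher and 0 lower by limma. Over all genes tested, 2.88% were called higher and 1.16% lower. In 9 of the 30 both cKO libraries lay above all 3 controls, where 14.5% of all genes did so. In 2 of the 30 both lay below, where 16.3% did. An unadjusted p under 0.05 was found for 3, 2 with a positive and 1 with a negative fold change, where 11.5% of all genes tested had such a p. These were Apoe, Gja1 (log2 fold change 0.69, adjusted p = 0.285, limma) and Ndrg2 (log2 fold change -0.45, adjusted p = 0.275, limma). The median log2 fold change of the list was 0.15. Apoe, the lipid carrier secreted by astrocytes and microglia, came closest, with 80.9 and 65.6 FPKM in cKO, against 47.9, 38.4 and 44.2 FPKM in control cortex (log2 fold change 0.75, adjusted p = 0.0912). Slc1a3, the glutamate transporter that radial glia share with astrocytes, had a log2 fold change of 0.15 (adjusted p = 0.869, limma). Glul, glutamine synthetase, which converts the glutamate cleared by Slc1a2 to glutamine, had a log2 fold change of 0.15 (adjusted p = 0.788, limma). Cst3 and Ncan, the most abundant genes of the list, had -0.01 and 0.22.

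The relatives and partners of the transcription factors were examined next. Of 23 other gliogenic transcription factors 0 were called in either direction by limma, where 2.88% of all genes tested were called higher and 1.16% lower. The median log2 fold change of these factors was 0.13. An unadjusted p under 0.05 was found for 4, 3 with a positive and 1 with a negative fold change, where 11.5% of all genes tested had such a p. Nfix, a further nuclear factor I gene, had 25.8 and 25.6 FPKM in cKO and 38.9, 49.96 and 27.7 FPKM in control libraries, the opposite sign to Nfia and Nfib (log2 fold change -0.55, adjusted p = 0.404). Nfic had a log2 fold change of 0.38, and the relatives of Id3, Id1, Id2 and Id4, had 0.16, 0.08 and -0.16. Stat3, which carries cytokine signals to the Gfap promoter, was at 4.81 and 4.77 FPKM in cKO and at 3.51, 2.94 and 3.37 FPKM in control cortex, without overlap (log2 fold change 0.54, adjusted p = 0.387). Olig1 and Olig2, factors of the oligodendrocyte lineage, had log2 fold changes of 0.92 and 0.68 (adjusted p = 0.308 and 0.379), and Sox8 and Sox10, relatives of Sox9, 0.10 and 0.77. Smad4, abundant in the list, had 0.04.

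Of the JAK-STAT and BMP pathways that lead to the astrocyte fate, Il6st and Socs3, the partners of Stat3 named here, were not called in either direction. The shared receptor subunit Il6st was at 6.43 and 6.35 FPKM in cKO and at 6.53, 5.93 and 5.67 FPKM in control cortex, with overlapping groups (log2 fold change 0.08, 95% interval -0.34 to 0.50, adjusted p = 0.886). The feedback inhibitor Socs3, itself a target of STAT3, had a log2 fold change of 0.04 (95% interval -0.42 to 0.50, adjusted p = 0.949), and the abundant Ptpn11 and Smad5 had -0.15 and 0.12.

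Of 34 genes known to rise in reactive astrocytes, 24 were tested, and 2 were called higher and 1 lower at the unadjusted thresholds, 0 at the adjusted one. Over all genes tested, 2.88% were called higher and 1.16% lower. An unadjusted p under 0.05 was found for 6 of the list, 5 with a positive and 1 with a negative fold change. The share over all genes tested was 11.5%. Serpina3n, a secreted protease inhibitor, was at 1.23 and 0.329 FPKM in cKO, against 0, 0.0293 and 0.188 FPKM in control cortex (log2 fold change 2.28, adjusted p = 0.206). Cxcl10, a chemokine induced by interferon, was at 1.12 and 0.327 FPKM in cKO and at 0, 0.0713 and 0 FPKM in control cortex (log2 fold change 2.59, adjusted p = 0.0861). Both were low and higher in MG18 than in MG19, unlike Gfap, whose cKO values were alike. Amigo2, an adhesion protein, was lower, with 1.02 and 1.30 FPKM in cKO and 3.78, 3.01 and 2.43 FPKM in control cortex (log2 fold change -1.32, adjusted p = 0.0689). The median of the list was 0.37, and Vim, a filament partner of Gfap abundant in radial glia, and B3gnt5 had -0.24 and -0.04.

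**Figure D3:**
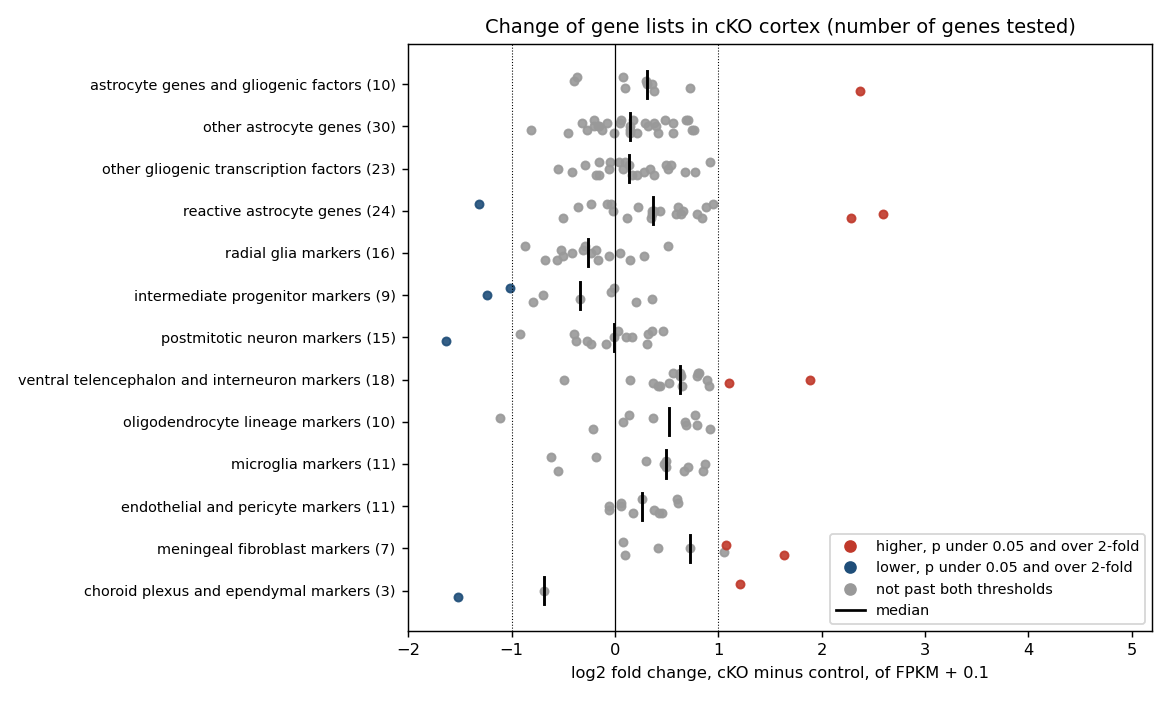
Log2 fold change, cKO minus control, of each gene tested in the 10 members (top row) and in other gene lists, with the median of each list as a black line and genes past the unadjusted thresholds in red (higher) or blue (lower). Gfap stands apart in the top row at 2.37, and the lists of ventral telencephalon, oligodendrocyte lineage, microglia and meningeal markers have medians from 0.49 to 0.73.

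Several lists of markers of other cells in the dissected tissue had positive medians. For comparison with the counts below, 2.88% of all genes tested were called higher and 1.16% lower. An unadjusted p under 0.05 in either direction was found for 11.5%. Of 18 genes tested that mark ventral telencephalon or interneurons, 17 had a positive log2 fold change with a median of 0.63. Their summed FPKM was 380 and 240 in MG18 and MG19, against 206 to 248 in control libraries, a sum carried by abundant genes such as Npy and Sst. Gene by gene, 10 of the 18 were above all controls in both cKO libraries, where 14.5% of all genes were. In 1 of the 18 both lay below all controls, where 16.3% of all genes did. An unadjusted p under 0.05 was found for 10, of which 9 had a positive and 1 a negative fold change. Gsx2 and Isl1 were called higher, and Isl1 was at 0.0995 FPKM in MG18 and 1.23 FPKM in MG19. Oligodendrocyte lineage markers summed to 44.0 and 34.4 FPKM in cKO and 23.4 to 31.1 FPKM in control libraries. Of these 10 of 14 were tested, 0 were called by limma, 4 had an unadjusted p under 0.05, Mobp was listed at 0 in every library, and the median was 0.52. The 11 microglia markers summed to 73.3 and 74.9 FPKM in cKO and 40.1 to 74.9 FPKM in control libraries (0 called by limma, 4 with an unadjusted p under 0.05, median 0.49). Meningeal fibroblast markers summed to 12.6 and 13.1 FPKM in cKO and 5.99 to 7.76 FPKM in control libraries, and 2 of 7, Col1a1 and Lum, were called higher. The sums of MG18 and MG19 rested on different genes. Dcn was at 6.90 FPKM in MG18 and 0.997 FPKM in MG19. Col1a1 was at 0.663 FPKM in MG18, below the control MG15 at 0.816 FPKM, and at 3.19 FPKM in MG19. Of the 7 tested, 2 were above all controls in both cKO libraries, where 14.5% of all genes were. The 3 choroid plexus and ependymal markers tested did not share a direction, and their median was -0.69. Ttr, the transthyretin of the choroid plexus, was called lower (log2 fold change -1.52, adjusted p = 0.418) and Kcnj13 was at -0.69, whereas Foxj1, a ciliogenic factor of ependymal cells, was called higher, at 4.12 and 2.14 FPKM in cKO, against 1.31, 1.10 and 1.28 FPKM in control cortex (log2 fold change 1.21, adjusted p = 0.172). The part of these cells in the values of Gfap and Slc1a2 was not tested.

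**Figure D4:**
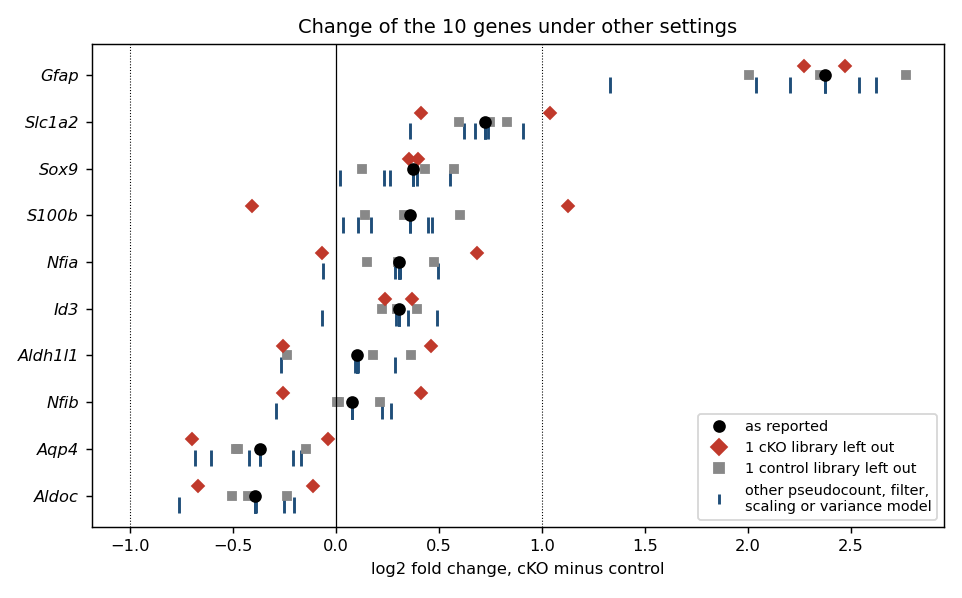
Log2 fold change, cKO minus control, of each gene as reported (black), with 1 cKO library (red) or 1 control library (grey) left out, and under other pseudocounts, filters, scalings and variance models (blue ticks). Gfap stays between 1.33 and 2.77 throughout, whereas S100b, Nfia, Aldh1l1 and Nfib change sign when 1 cKO library is left out.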

How the data were processed

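RNA of 2 cKO and 3 control E16 cortices was depleted of ribosomal RNA and sequenced as strand-specific paired reads. The authors mapped the reads to mm10 with TopHat2, removed reads that were duplicated, of low quality, not properly paired or mapped to several places, and deposited 1 table of FPKM values per gene and library made with Cuffdiff and cummeRbund. Their versions, the annotation and the strand setting were not given in the sources used here. Counts are not part of the table, so a count test was not used, and depth could be estimated only roughly from the spacing of low values.

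From the deposited FPKM, log2(FPKM + 0.1) was fitted with limma 3.58.1 in R 4.3.3 (lmFit, then eBayes with trend, which gave 6.24 prior degrees of freedom) over all 14697 genes whose mean reached 0.1 FPKM, without 58 names of small RNAs that reached it. P-values were adjusted over all of them, and fold changes on this scale understate those of low genes. Thresholds were those of the study. The limma p-values rest on the spread between these 5 samples, which the study calls biological replicates. For each gene this spread was drawn towards that of other genes of similar level. Groups came from the genotype labels, and replicate numbers, which follow the order of the samples (MG15 to MG17 and MG18 to MG19), pair nothing.

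The members and lists were chosen with earlier results of these data known. The rule for named genes took every member, Uhrf1, relatives and partners of members, and from the other lists the genes called and the 2 most abundant, which for lists of other cell types are not all given. A result that the rule names is not reported here. Apoe, Gja1, Ndrg2, Olig2, Dcn and Mobp were named after their values were seen. The 33 other astrocyte genes listed hold 1 gene under both of its names, Ppap2b and Plpp3. Only Ppap2b was found in the expression table and tested. Alternatives were other pseudocounts, filters, scalings, a variance model without trend, and leaving out each library. The test was checked on simulated data. Positions and promoter windows were taken from annotation of GRCm38, and figures were drawn with matplotlib 3.10.9 in Python 3.11.15, with pandas 2.3.3 and numpy 2.4.6.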

Additional observations from a re-analysis of the deposited data

How the results depend on the processing

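With 2 cKO and 3 control libraries, every value rests on few samples, and where 1 cKO library was left out the other was assumed to vary like the control libraries. Gfap kept its direction and passed the unadjusted thresholds in all alternatives, with a log2 fold change from 1.33 (pseudocount 1) to 2.62 (pseudocount 0.01) over the settings and from 2.004 to 2.77 with 1 library left out. At an adjusted p under 0.05 the number of members was 0 with a pseudocount of 0.01, without the filter, with quantile normalization and without the trend, where the adjusted p of Gfap was 0.0758, 0.0889, 0.0636 and 0.0861, and it ranged from 0 to 1 with 1 library left out. The number past the unadjusted thresholds ranged from 1 to 2 with 1 library left out, the second being Slc1a2 without cKO replicate 2 (MG19), whose log2 fold change ranged from 0.41 to 1.04.

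Scaled to equal sums of FPKM without small RNAs, Aldh1l1, Nfia, Nfib and Id3 reversed to -0.27, -0.062, -0.29 and -0.067. The median of all genes moved to -0.38 in that setting, and relative to it these members were at 0.11, 0.32, 0.08 and 0.31. Rmrp and Rpph1, listed at 0 in all controls, made up 25.01% and 38.6% of that sum in MG18 and MG19. Scaling without them as well, an alternative chosen after seeing the data, moved the median to 0.16 and reversed no member. With 1 library left out the log2 fold change ranged from -0.41 to 1.13 for S100b, from -0.26 to 0.46 for Aldh1l1, from -0.067 to 0.68 for Nfia and from -0.26 to 0.41 for Nfib. Requiring a mean of 1 FPKM removed Aqp4 and S100b.

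The counts over all genes moved more. Genes higher at the unadjusted thresholds fell to 154 with a pseudocount of 1 and to 172 with a minimum mean of 1 FPKM, against 423. Genes lower were 24 and 63 in these settings, 287 with quantile normalization and 509 with equal sums, against 171, and 151 to 313 with 1 library left out. At an adjusted p under 0.05, genes higher were 100 with this minimum and 34 to 134 with 1 library left out, against 161. Genes lower were 14 with that filter, 732 with equal sums and 2 to 20 with 1 library left out, against 24. The cause was not tested. No paired analysis was possible because the labels give no replicate numbers shared by the groups.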

Other observations

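Markers of cortical progenitors, both radial glia and intermediate progenitors, had mostly lower values in cKO cortex. Over all genes tested, 1.16% were called lower, and 11.5% had an unadjusted p under 0.05 in either direction. Of 16 radial glia markers, 12 had a negative log2 fold change with a median of -0.26, although 0 were called by limma. An unadjusted p under 0.05 was found for 5, of which 4 were negative and 1, Sox1, was positive (log2 fold change 0.51). Fabp7, a lipid binding protein of radial glia, had a log2 fold change of -0.52 (adjusted p = 0.497). Of 9 markers of intermediate progenitors, 7 were negative with a median of -0.33 and 2 were called lower. Gadd45g, a growth arrest and stress response gene, was at 13.4 and 12.6 FPKM in cKO, against 24.3, 27.7 and 27.0 FPKM in control cortex (log2 fold change -1.02, SE 0.16, adjusted p = 0.0127, limma). Neurod4, a proneural factor, was at 1.16 and 1.30 FPKM in cKO, against 2.18, 3.14 and 4.02 FPKM in control cortex (log2 fold change -1.24, adjusted p = 0.125).

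Of 15 markers of postmitotic neurons 1 was called lower, where 1.16% of all genes tested were, and the median was -0.01. The gene called was Nefl, the light neurofilament, with 32.5 and 12.6 FPKM in cKO and 65.0, 73.6 and 52.1 FPKM in control cortex (log2 fold change -1.63, adjusted p = 0.0619, limma). Dnmt1, the partner of Uhrf1, and its paralog Uhrf2 had log2 fold changes of 0.06 and -0.10, and of 11 genes of the DNA methylation machinery Uhrf1 was the only one called in either direction.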
